A study of Saccharomyces cerevisiae with 13 samples.

Results

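The 10 genes described here carry out phosphate uptake, phosphate release by phosphatases and the regulation of both in the budding yeast Saccharomyces cerevisiae. They were chosen by name, with earlier results of these data known, and each was read from the 1 probe set that the platform annotation assigns to it alone. All 10 passed the filter on dim probe sets, among 5102 genes tested. The genes are PHO84, PHO89, PHO87 and PHO90 (carriers), PHO5, PHO8 and PHM8 (phosphatases) and PHO81, PHO4 and PHO85 (regulators). None of their probe sets is shared with a paralog in that annotation. Of the acid phosphatase family of PHO5, PHO3 has a probe set of its own, while PHO11 and PHO12 share 1 and were not separated.

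The series asks which genes respond when the polyamine spermidine or spermine is given to a yeast mutant that lacks SPE3 and FMS1. Total RNA was hybridised to 13 one-colour Affymetrix arrays. There were 5 arrays of spermidine-treated delta-spe3 delta-fms1 cells, 3 arrays of spermine-treated delta-spe3 delta-fms1 cells and 5 control arrays, for which the labels give the treatment as control and no genotype. SPE3 encodes spermidine synthase and FMS1 an oxidase that can turn spermine into spermidine. The sources used here give no strain background, dose or duration of treatment. Nothing in the labels says that the arrays of a group had cultures of their own, so each p-value reflects spread among these arrays that may be technical.

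In yeast, the PHO pathway couples phosphate supply to transcription. When phosphate is plentiful, the cyclin-dependent kinase Pho85 with its cyclin Pho80 phosphorylates the transcription factor Pho4 and keeps it out of the nucleus. When phosphate is short, the inhibitor Pho81 holds the kinase back, and Pho4 acts with Pho2 on genes for the high-affinity carriers Pho84 and Pho89, for secreted and vacuolar phosphatases and for polyphosphate synthesis. Pho87 and Pho90 are low-affinity carriers that serve when phosphate is plentiful.

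SPE3 and FMS1 were dim on all 13 arrays, with signals between 0.570 and 13.8 for SPE3 and between 1.10 and 8.10 for FMS1, below the level of the non-yeast control probe sets on each array. That level, the 95th percentile of 19 such probe sets, averaged 18.0 on spermidine arrays, 19.1 on spermine arrays and 17.6 on control arrays, and each of the 10 phosphate genes lay above it on every array. Array medians ran from 125 to 162 before normalization. Controls 2 and 3 stood apart from the other controls in general stress genes: the mean of 12 such genes, on the log2 scale, lay 1.09 and 1.02 above the control mean there, and between -0.83 and -0.46 on controls 1, 4 and 5. Spermine array 1 lay at 0.53, the other spermine arrays at -1.08 and -0.64, and the spermidine arrays between -2.08 and -1.26. For the 10 genes, the spermidine results that rest on these arrays are given below with and without them.

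With spermidine, genes for high-affinity uptake, the acid phosphatase PHO5 and the regulators PHO81 and PHO4 rose, PHM8 fell, and the low-affinity carrier genes PHO87 and PHO90 were not called. Of the 10 genes, 5 were called higher and 1 lower (limma, Benjamini-Hochberg adjusted p under 0.05 over all genes), where 17.9% of all 5102 genes were called higher and 14.7% lower. The median log2 difference was 0.69 for the 10 genes and 0.023 for all genes. Since the genes were chosen with earlier results of these data known, these counts describe them and do not test them as a set. For the same 5 risers, each spermidine array exceeded every control array, a pattern that 14.1% of all genes showed in that direction. None of the 10 lay below every control array, as 9.39% of all genes did. The same 5 genes were called higher with controls 2 and 3 left out, and also with those 2 as the only controls; the call of PHM8 was lost in the first of these settings. Whether a higher signal reflects more RNA in each cell or more cells that express the gene cannot be told apart in RNA from whole cultures.

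**Figure D1:**
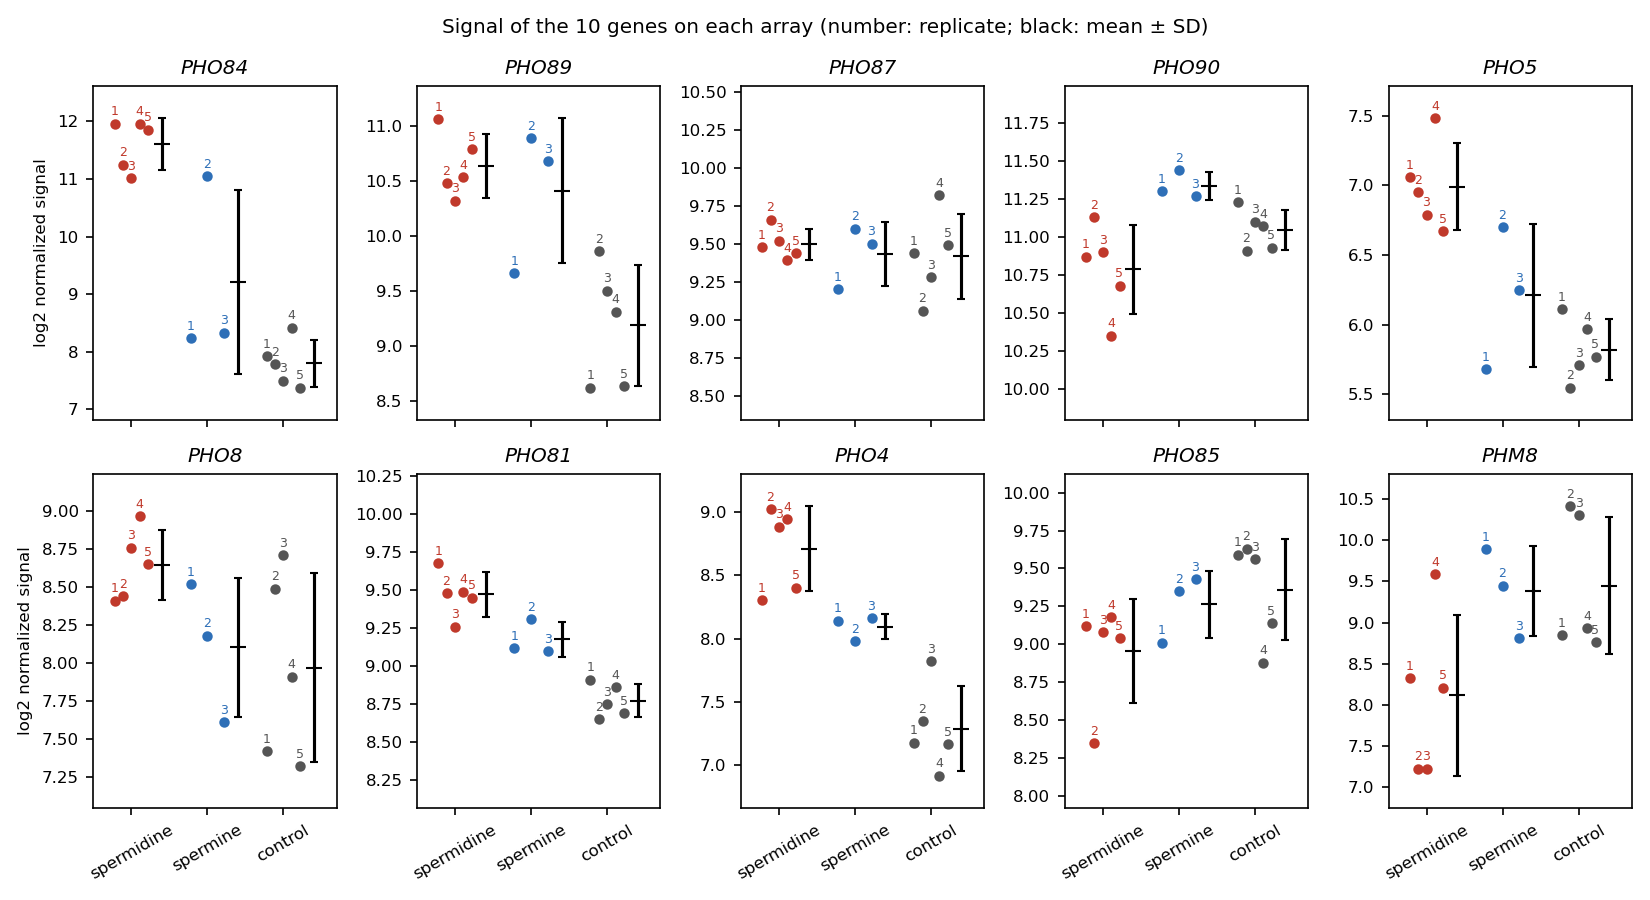
Log2 normalized signal (vertical axis) of each of the 10 genes on each spermidine, spermine and control array; the small number is the replicate, and the black bar is the group mean with its SD (n = 5, 3 and 5). The 5 spermidine points lie above all control points for PHO84, PHO89, PHO5, PHO81 and PHO4, and for PHO84 spermine array 2 lies apart from the other spermine arrays.

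PHO84 encodes the high-affinity proton and phosphate symporter. Its signals, as deposited, were 3793, 2518, 2178, 3637 and 3704 on the spermidine arrays, 309.6, 2103 and 325 on the spermine arrays, and 236, 217, 187, 338 and 162 on the control arrays. Spermidine arrays were all far above controls, whereas among spermine arrays only array 2 came close to them and the other 2 overlapped the controls. The rise with spermidine was 14.0-fold (log2 3.81 ± 0.44, SE, limma adjusted p = 1.69e-05), the 10th largest rise among the genes tested. PHO89 encodes a sodium-coupled phosphate carrier that in yeast is most active at alkaline pH. It had signals of 2144, 1443, 1298, 1541 and 1808 with spermidine, 799, 1849 and 1589 with spermine and 398, 916, 727, 627 and 393 in controls. The spermidine arrays again lay above all controls, and so did spermine arrays 2 and 3. PHO89 rose 2.74-fold with spermidine (log2 1.45 ± 0.27, adjusted p = 9.79e-04). Controls 2 and 3 held the highest PHO89 signals of their group. With them left out the log2 difference was 1.78, and with only them as controls it was 0.96 (adjusted p = 0.0308).

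Neither low-affinity carrier gene was called with spermidine. PHO87 had signals of 736, 782, 717, 699.6 and 688 with spermidine, 595, 782 and 730.5 with spermine and 701, 527, 622, 904 and 725 in controls, so that the groups overlapped throughout. Its log2 difference with spermidine was 0.08, with a 95% interval from -0.23 to 0.40. PHO90 had signals of 1883, 2322, 1994, 1386 and 1660 with spermidine, 2515, 2794 and 2388 with spermine and 2392, 1941, 2182, 2114 and 1950 in controls. Spermidine arrays overlapped the controls (log2 -0.26 ± 0.14, adjusted p = 0.165), and the 3 spermine arrays lay above every spermidine array. The intervals exclude a 2-fold change of either gene with spermidine in this fit, the widest bounds being 1.32-fold for PHO87 and 0.682-fold for PHO90.

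PHO5 encodes the secreted acid phosphatase that yeast makes when phosphate is short. Its signal was low, with 141, 110.3, 106, 202 and 101 on spermidine arrays, 52.0, 103 and 76.4 on spermine arrays and 66.1, 52.3, 55.9, 61.8 and 51.1 on control arrays. All spermidine arrays exceeded all controls, and spermine array 1 was within the control range. PHO5 rose 2.24-fold with spermidine (log2 1.16 ± 0.21, adjusted p = 6.07e-04). Its neighbour on the same chromosome in the reference gene table, PHO3, encodes a constitutive acid phosphatase that thiamine represses in yeast, and its coding sequence is similar. PHO3 had signals of 423, 371, 484, 126 and 605 with spermidine, 867, 2326 and 1776 with spermine and 1608, 753, 942, 1916 and 1769 in controls. PHO3 fell by 1.90 on the log2 scale with spermidine (SE 0.43, adjusted p = 0.00356), with no overlap between the groups. Spermidine array 4 held the highest PHO5 and the lowest PHO3 signal of all arrays. Against controls 2 and 3 alone the PHO3 difference was -1.26 (adjusted p = 0.103). The extent to which the PHO5 and PHO3 probe sets bind RNA of the other paralog was not tested. The probe set shared by PHO11 and PHO12 had means of 157 ± 19.3 with spermidine, 162 ± 23.3 with spermine and 119 ± 31.2 in controls (SD, n = 5, 3 and 5), and an exact two-sided permutation test of spermidine against control gave p = 0.0794, where the smallest possible p is 0.00794.

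PHO8 encodes the vacuolar alkaline phosphatase. It had signals of 355, 323, 415, 536 and 399.9 with spermidine, 379, 289.9 and 197 with spermine and 162, 354, 421, 233 and 154 in controls. Controls 2 and 3, at 354 and 421, reached the spermidine range, and the other controls lay below it. The log2 difference with spermidine was 0.67 ± 0.26 (adjusted p = 0.0639), and was not called. It was called at 0.81 (adjusted p = 0.0377) without control 2 and at 0.86 (adjusted p = 0.0179) without control 3. With both left out, a setting chosen after seeing the data, it stood at 1.10 (adjusted p = 0.00225), and against those 2 controls alone at 0.04 (adjusted p = 0.917).

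PHM8 encodes a phosphatase of nucleotides and lysophosphatidic acid that yeast makes in phosphate starvation, and it was the member that fell. Its signals were 335, 133, 145, 802 and 289.7 with spermidine, 946, 697 and 454 with spermine and 467, 1341, 1254, 484 and 428 in controls. The groups overlapped, since spermidine array 4 exceeded controls 1, 4 and 5. PHM8 fell by 1.33 on the log2 scale with spermidine (SE 0.46, adjusted p = 0.0367). The call was lost without control 2 (log2 -1.09, adjusted p = 0.0896), without control 3 (-1.12, adjusted p = 0.0866) and without spermidine 1 (-1.39), 2 (-1.10), 3 (-1.11) or 5 (-1.36), where the adjusted p lay between 0.0539 and 0.0902. With controls 2 and 3 both left out the difference was -0.73 (adjusted p = 0.235), and against those 2 alone it was -2.23 (adjusted p = 0.00700). Levels of the general stress genes moved with PHM8 across most arrays, and their part in the result was not tested. Of those 12 genes, 7 fell and 0 rose with spermidine, against 14.7% and 17.9% of all genes. Controls 2 and 3 were the highest arrays for PHM8 and for the stress mean, and spermidine arrays 2 and 3 the lowest for both. Spermidine array 4 lay at 0.14 for PHM8 against -1.26 for the stress mean, both as log2 relative to the control mean. Spermine array 2 lay at 0 for PHM8 against -1.08 for the stress mean, on the same scale.

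**Figure D2:**
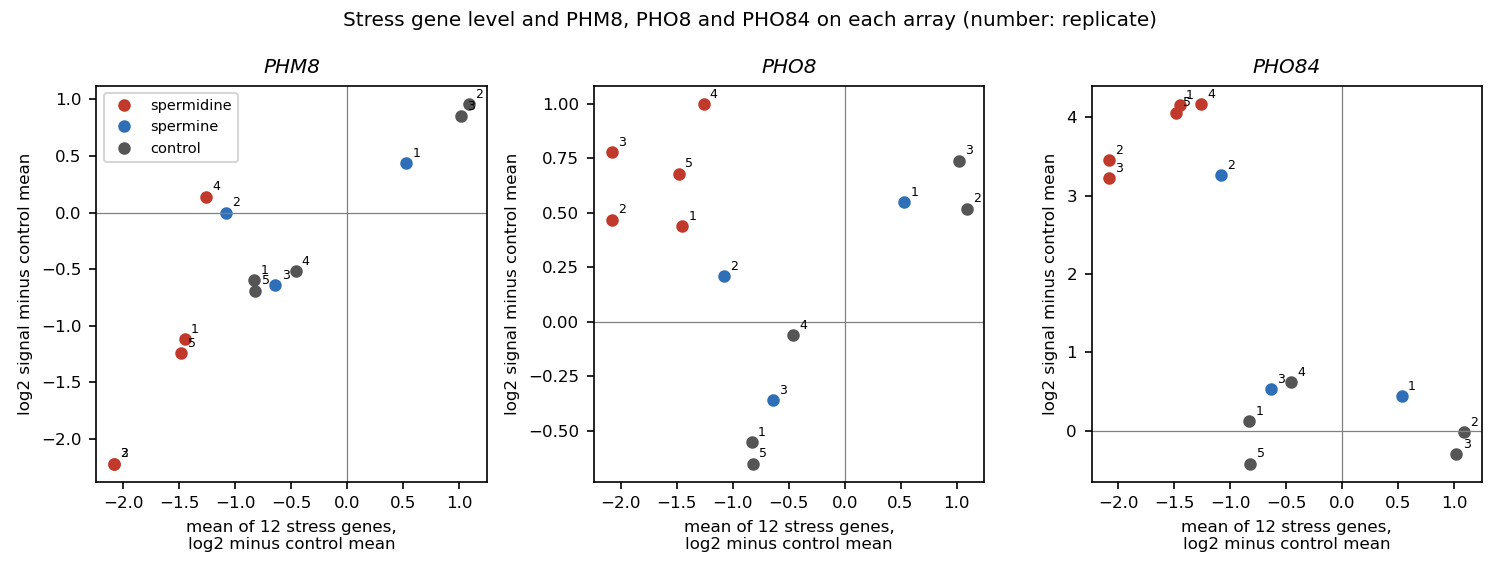
Log2 signal of PHM8, PHO8 and PHO84 (vertical axes) against the mean log2 level of 12 general stress genes (horizontal axes), each relative to the control mean; each point is 1 array of the spermidine, spermine or control group, with its replicate number. PHM8 is highest on controls 2 and 3, where the stress mean is 1.09 and 1.02, PHO8 is high on those controls and on the spermidine arrays, and spermidine arrays 2 and 3 coincide for PHM8.

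Of the regulators, PHO81, the inhibitor of the Pho85 kinase, had signals of 844, 688, 598, 746 and 692 with spermidine, 562, 632 and 554 with spermine and 489.6, 394, 433, 461 and 411 in controls. No spermidine or spermine array fell within the control range. PHO81 rose 1.63-fold with spermidine (log2 0.70 ± 0.12, adjusted p = 3.98e-04). PHO4, the transcription factor of the pathway, had signals of 328, 497, 454, 529 and 334 with spermidine, 286, 252 and 289.6 with spermine and 138, 166, 231, 118 and 139 in controls. The 3 groups did not overlap, with spermidine highest, spermine between and controls lowest. PHO4 rose 2.68-fold with spermidine (log2 1.42 ± 0.19, adjusted p = 5.12e-05). PHO85, the kinase gene, had signals of 575, 302, 518, 611 and 519.7 with spermidine, 524, 653 and 696 with spermine and 777, 784, 754, 467 and 568 in controls. Its groups overlapped and it was not called (log2 -0.40 ± 0.19, adjusted p = 0.125). The cyclin gene PHO80 was not called either (log2 -0.34 ± 0.18, adjusted p = 0.171). PHO2, the partner of Pho4, lay under the filter, and an exact two-sided permutation test of its log2 difference of -0.12 with spermidine gave p = 0.667.

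**Figure D3:**
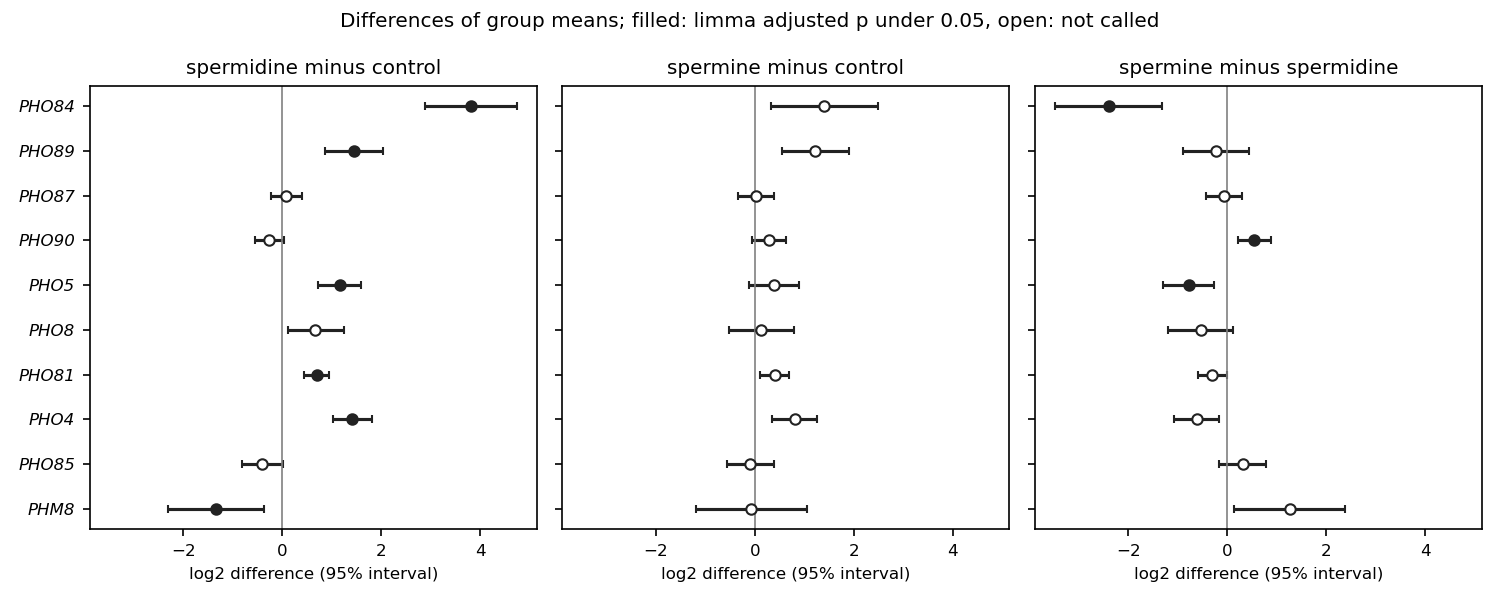
Log2 difference of group means (horizontal axis) with its 95% interval for each of the 10 genes in the comparisons of spermidine with control, spermine with control and spermine with spermidine; filled points passed a limma adjusted p of 0.05 and open points did not. With spermidine 5 genes lie to the right and PHM8 to the left among the filled points, with spermine against control no point is filled, and PHO84 differs most between the polyamines.

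Spermine was set against the same control arrays, so both comparisons share those samples. None of the 10 genes was called with spermine, and of all genes 0.0196% were called higher and 0% lower by limma, while 433 of 5102 genes had an unadjusted p under 0.05 and 46 were called with array weights. The log2 differences were 1.41 ± 0.50 for PHO84 (adjusted p = 0.415), 1.22 ± 0.32 for PHO89 (adjusted p = 0.221), 0.81 ± 0.21 for PHO4 (adjusted p = 0.221), 0.40 ± 0.14 for PHO81 (adjusted p = 0.380) and 0.38 ± 0.24 for PHO5 (adjusted p = 0.734). After normalization all 3 spermine arrays lay above all controls for PHO90, PHO81 and PHO4, although for PHO90 the deposited signal of spermine array 3, 2388, was below the 2392 of control 1. All spermine arrays lay above all controls after normalization for 3.86% of all genes, and none of the 10 lay below all controls on all 3 arrays, as 2.55% of all genes did. The median was 0.34 for the 10 genes and 0.021 for all genes. With array weights, which count arrays by how well they fit their group, PHO89 (log2 1.62, adjusted p = 0.0141) and PHO4 (log2 0.93, adjusted p = 0.0254) were called.

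The spermine arrays differed among themselves. Array 2 was the highest of the 3 for PHO84, PHO89, PHO87, PHO90, PHO5 and PHO81, array 1 for PHO8 and PHM8, and array 3 for PHO4 and PHO85. PHO84 stood 3.26 above the control mean on the log2 scale on array 2, and 0.44 and 0.53 above it on arrays 1 and 3. As a share of the spermidine difference on that scale, these values came to 85.4%, 11.7% and 14.0%. Without array 2 the PHO84 difference with spermine was 0.49 (adjusted p = 0.952). For PHO4 the shares were 60.1%, 48.8% and 61.4% on arrays 1, 2 and 3, so that its 3 arrays lay close together. For PHO89 the shares were 32.6%, 117% and 103%.

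Spermine differs from spermidine by an added aminopropyl group. Since the doses and times behind each label are not given, the values below compare the arrays as labelled. Of the 10 genes, 2 were called lower with spermine than with spermidine and 1 higher, where 11.2% and 9.43% of all genes were called in those directions and 20.6% in either. The spermine arrays lay above every spermidine array for PHO90 and below every one for PHO4, patterns that 12.8% and 14.8% of all genes showed. PHO84 was 5.27-fold lower with spermine (log2 -2.40 ± 0.50, adjusted p = 0.00353), and the log2 difference was -3.32 without spermine array 2, -1.92 without array 1 (adjusted p = 0.0265) and -1.96 without array 3 (adjusted p = 0.0299). After normalization spermine array 2 lay just above spermidine array 3, at 3.26 against 3.22 on the log2 scale relative to the control mean. PHO5 was 1.72-fold lower (log2 -0.78 ± 0.24, adjusted p = 0.0316), a call that was lost without spermine 1 (log2 -0.51), spermine 3 (-0.80), spermidine 1 (-0.76) or spermidine 4 (-0.65). PHO90 was 1.46-fold higher (log2 0.55 ± 0.16, adjusted p = 0.0243), a call lost without spermine 1 (0.56), spermine 2 (0.49), spermine 3 (0.58) or spermidine 5 (0.52). The adjusted p-values of these PHO5 and PHO90 losses lay between 0.0503 and 0.170. PHO4 missed the threshold (log2 -0.61 ± 0.21, adjusted p = 0.0553). It was called without control 3 (adjusted p = 0.0314), spermidine 1 (0.0332) or spermidine 5 (0.0450). With only the 2 polyamine groups in the fit, PHO4 was called (adjusted p = 0.0491) and PHO5 was not (adjusted p = 0.0510). PHM8 also missed the threshold (log2 1.27 ± 0.53, adjusted p = 0.103) and was called without spermidine 4 (log2 1.64, adjusted p = 0.0233). PHO89 was not called (log2 -0.23, 95% interval from -0.90 to 0.45), an interval that allows anything between a 1.36-fold higher and a 0.534-fold level with spermine.

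The 2 high-affinity carrier genes were also set against each other within each array, a description chosen after their values were seen. Permutation tests of it were run, and their p-values are left out for that reason. The log2 signal of PHO84 minus that of PHO89 averaged -1.20 with spermine, with a range of -2.35 to 0.17, 0.97 with spermidine, with a range of 0.70 to 1.43, and -1.39 in controls, with a range of -2.08 to -0.71. The spermine range overlapped that of the controls and did not reach that of spermidine.

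Other genes of phosphate metabolism were taken from lists by role, also drawn up with earlier results of these data known. Their counts stand, as descriptions, beside the 17.9% of all genes called higher and 14.7% called lower with spermidine. In the list of other genes tied to phosphate transport, 5 of 8 tested rose with spermidine and 0 fell (median log2 0.37). Not all genes of that list encode carriers, so the count is not one of phosphate carriers. GIT1, the permease for glycerophosphoinositol, rose 6.96-fold (log2 2.80 ± 0.55, adjusted p = 0.00129). GIT1 passed the filter through its spermidine arrays, with a mean signal of 206 there. The control mean of 33.8 lay under the filter level of 37.8, and the spermine mean of 46.2 near it. The p-value of GIT1 and its place in the count of 5 are thus descriptions only. Its signals were 264, 96.3, 103, 346 and 221 with spermidine, 31.5, 59.4 and 47.7 with spermine and 46.6, 50.6, 5.39, 33.0 and 33.2 in controls. The spermidine arrays were above all others, and control 3 was far below the other controls, under the level of the non-yeast probe sets. Without control 3 the log2 difference of GIT1 was 2.18 (adjusted p = 1.91e-04). The other risers were SND3, also called PHO88, and SYG1, both at log2 0.42, GTR1 at 0.40 and, outside the naming rule and picked after its value was seen, the mitochondrial phosphate carrier gene MIR1 at 0.35. The calls of SYG1, GTR1 and MIR1 were near the threshold and were each lost without control 2, without control 3 and without spermidine 1, among others, with adjusted p reaching 0.104, 0.0652 and 0.0963 over all arrays left out in turn. With controls 2 and 3 both left out, the calls of SND3, SYG1, GTR1 and MIR1 were all lost. PHO86, whose product lets Pho84 leave the endoplasmic reticulum, and PHO91, the vacuolar phosphate carrier gene, were not called with spermidine (log2 0.22 and 0.00). SPL2, a regulator of low-affinity uptake, lay under the filter, with an exact permutation p of 0.897 for spermidine against control.

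In the list of polyphosphate and glycerophosphodiester genes, 4 of 10 tested rose with spermidine and 2 fell (median log2 0.34). VTC3 of the polyphosphate polymerase complex rose 3.37-fold, with means of 666 ± 141 with spermidine, 273 ± 98.6 with spermine and 196 ± 37.6 in controls (SD, n = 5, 3 and 5). VTC4, its catalytic subunit, rose by log2 0.92 and VTC1 by 0.58, both named outside the rule after their values were seen. The VTC1 call was lost with controls 2 and 3 left out. GDE1, a glycerophosphodiesterase gene, rose 2.06-fold (log2 1.04 ± 0.13, adjusted p = 2.81e-05). PHM7, a membrane protein gene, fell by 2.17 on the log2 scale, and GPP2, a glycerol phosphatase gene also called HOR2, fell by 1.29. PHM7 signals were 32.7, 33.2, 27.3, 36.5 and 50.4 with spermidine, 166, 67.0 and 91.6 with spermine and 92.7, 419.8, 474, 75.3 and 72.9 in controls. Controls 2 and 3 stood far above the other controls, as they did for PHM8. The PHM7 difference was -1.22 with those controls left out and -3.60 against them alone, both called. PHM6, a phosphate-regulated gene of unknown role, was under the filter and is named after its values were seen. Its signals lay between 49.6 and 84.7 with spermidine and below the non-yeast level on all spermine and control arrays, so that it was at least 3.85-fold higher with spermidine than in controls, both groups' mean signals being 63.7 and 5.87.

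Among other phosphatase genes, 1 of 3 rose and 1 fell with spermidine (median log2 0.29), the 2 being PHO13 at log2 0.29, which was lost on leaving out any of 8 arrays (adjusted p up to 0.0925), and PHO3. Of the signalling and chromatin genes, 2 of 10 rose and 0 fell (median log2 0.02), near the 17.9% of all genes called higher. The 2 were PLC1 for phospholipase C at log2 0.88 and INO80 for a chromatin remodelling ATPase at 0.48. The PLC1 call was lost with controls 2 and 3 left out, and the INO80 call with controls 1, 4 and 5 left out. Of the cyclins of Pho85, 3 of 10 rose and 0 fell (median log2 0.20), against the same 17.9% and 14.7% of all genes. They were the G1 cyclin genes PCL1 and PCL2 at log2 1.15 and 0.83, and PCL9 at 0.82, which was lost without control 4, spermidine 1 or spermidine 5 (adjusted p up to 0.0559). With spermine against control, 0 members of these 5 lists were called in either direction. Between spermine and spermidine, 3 of the 41 list entries tested were called higher and 9 lower, against 9.43% and 11.2% of all genes. PHO80, not called, stands in both the signalling and the cyclin list and is counted in each. Of the list genes, PCL1 (log2 -1.86), GIT1 (-2.06), VTC3 (-1.34) and GDE1 (-0.65) were called lower. PHO3 (log2 2.15 ± 0.49, adjusted p = 0.00660), GPP2 (1.11) and VTC5 (1.14), a further subunit gene of the polyphosphate polymerase, were called higher. The calls of PCL1, GDE1, PHO3 and GPP2 were kept in every alternative fit. The GIT1 call was lost without any 1 spermine array and without spermidine 1, 4 or 5, with adjusted p between 0.0600 and 0.117. Other lower calls were lost too on leaving out 1 array. VTC1 and PCL2 each lost theirs in 9 such fits, the phosphatase gene DIA3 in 4 and SND3 in 1. Their adjusted p reached 0.220, 0.178, 0.156 and 0.0714, in that order.

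**Figure D4:**
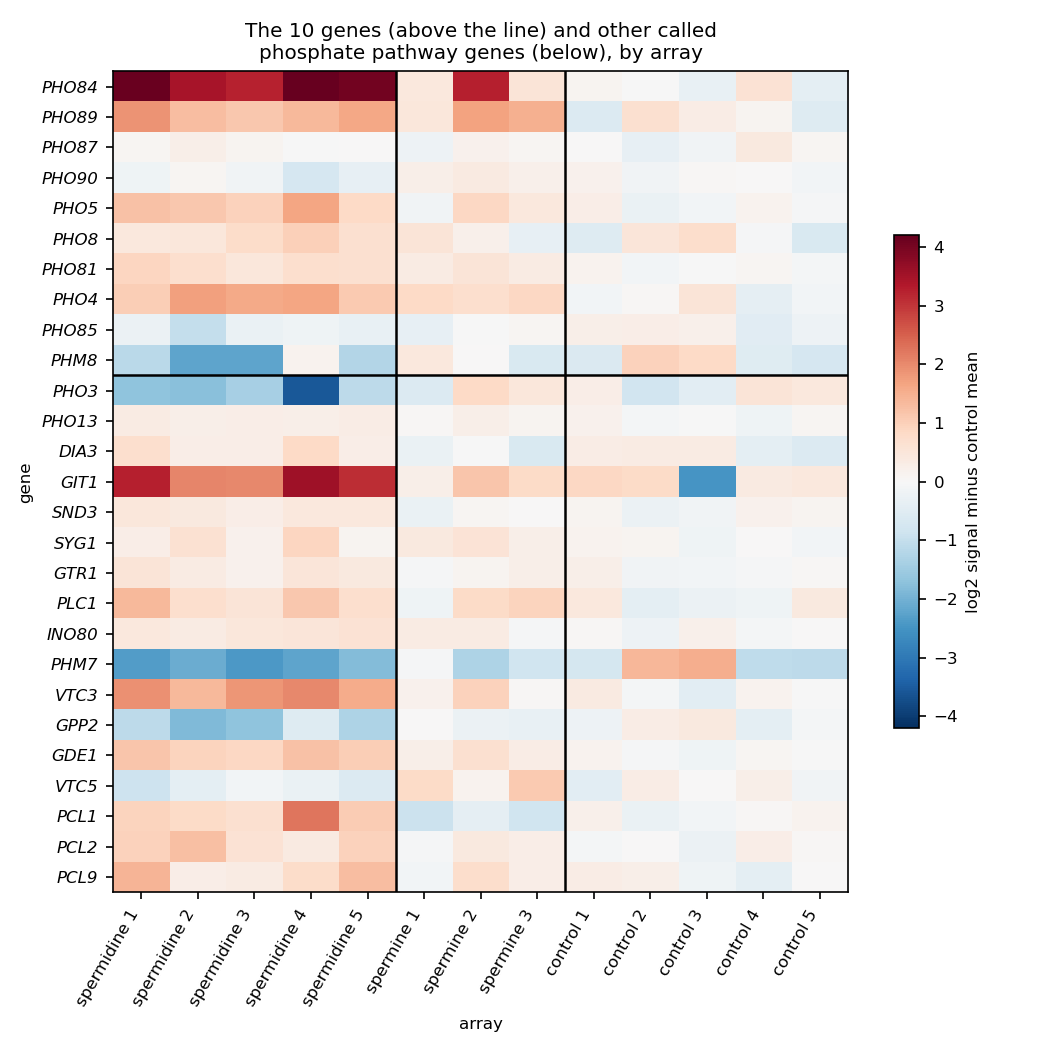
Log2 signal minus the control mean (colour) of the 10 genes, above the line, and of the other phosphate pathway genes named by rule, below it, on each spermidine, spermine and control array. PHO84 and GIT1 are the deepest red rows on the spermidine arrays, spermine array 2 is red for PHO84 as well, and PHM8 and PHM7 are highest on controls 2 and 3.

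The genes whose pattern was most like that of PHO84 were listed by Pearson r over the 13 arrays, among 5101 other genes, as a description. They were GDE1 (r = 0.977, Spearman rho 0.945), MCH5 for a riboflavin transporter (r = 0.959), VTC3 (r = 0.956), VTC4 (r = 0.954) and SOM1, a mitochondrial peptidase factor gene (r = 0.946). All of these values share the same 13 arrays and their 3 groups. After each group's mean was subtracted, the closest genes were CRH1 (r = 0.891), YOR338W (0.881), YPS3 (0.866), GDE1 (0.851) and RCF2 (0.846), so that GDE1 was in both lists. Spermine array 2 weighs heavily in these r values. There PHO84 stood 3.26 above the control mean on the log2 scale, against 0.44 and 0.53 on spermine arrays 1 and 3. For PHM8 the closest over arrays were TFS1 (r = 0.958), HXT5 (0.948), UBI4 (0.941), YMR196W (0.939) and PNC1 (0.931). With group means subtracted they were GPG1 (r = 0.981), YMR196W (0.955), UIP4 (0.944), TFS1 (0.943) and GPP2 (0.940). HXT5 encodes a hexose transporter and UBI4 the stress-induced polyubiquitin. Of these genes close to PHM8, HXT5, PNC1 and GPP2 were called lower with spermidine and the others were not called. For PHM8, controls 2 and 3 stood 0.96 and 0.85 above the control mean on the log2 scale. Controls 1, 4 and 5 lay at -0.60, -0.52 and -0.69, and the weight of single arrays in these r values was not tested.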

How the data were processed

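Total RNA of 13 yeast samples had been hybridised to one-colour Affymetrix arrays. The deposited values are linear signal intensities that the authors made with MAS5, per the submitters' processing notes, which name no version. On every array the mean signal, trimmed by 2% at both ends, was 500. Titles of the samples gave the groups and the replicate numbers.

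The platform annotation pairs 6504 of the 9335 probe sets with a single gene, 328 with several genes and 2443 with none; the other 60 are array controls and were not tested. All 6504 were matched to current symbols by gene identifier. Signals were log2-transformed with no pseudocount, then quantile normalized, because array medians differed 1.29-fold. The dimmest 25% by mean log2 level (signal under 37.8) were left out, and a gene with several probe sets was read from its brightest. The fit of group means used limma 3.58.1 under R 4.3.3, took in all 13 arrays, let the variance prior follow intensity and had no replicate block. Adjusted p-values are Benjamini-Hochberg over 5102 genes, with a threshold of 0.05; ± after a log2 value is the SE. Named genes under the filter or with a shared probe set had exact permutation tests.

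Named genes are the 10 members, PHO80, PHO2, PHO86, PHO91, PHO3, PHO11, PHO12, SPL2 and up to 4 called genes per list and contrast. The members and lists were chosen with earlier results of these data known. On simulated data in which 200 of 5102 genes were changed, the spermidine contrast recovered 68.0% of genes raised by a log2 of 1 and 98.0% at 2, as did the spermine contrast. At a log2 of 0.5 the spermidine contrast recovered 24% and the spermine contrast 12%. Plots were made in Python 3.11.15 using matplotlib 3.10.9. Alternatives covered the quantile step, pseudocount, filter, probe set choice, trend, array weights, groups in the fit, a replicate block and each array left out. The number of arrays limits the precision.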

Additional observations from a re-analysis of the deposited data

Results flagged for a closer look

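The PHO85 signal on spermidine array 2 was 302, below the 4 other spermidine arrays, and its gap to the nearest of them was 0.835 of the range of the group on the log2 scale. It was the 1 such value among 20 groups examined, the 10 genes in the spermidine and in the control arrays, where chance alone gives about 1 in 20.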

How the results depend on the processing

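PHO84, PHO89, PHO5, PHO81 and PHO4 kept their call with spermidine in every alternative fit that tested them, and 0 of the 10 genes reversed in any comparison. PHO5 was not tested with the dimmest 50% left out, where members lower with spermine than with spermidine numbered 1. Array weights left 0 members lower with spermidine, and gave 46 genes called with spermine against control (34 higher, 12 lower), 2 of them members. Same-numbered arrays did not deviate together (r between -0.108 and 0.203 for spermidine and control, with 1 of 5 arrays closest to its own number, and at most 0.0229 for the other pairings), so the numbers were not taken as pairs. With the replicate number as a block, 0 members were lower with spermidine, 2 genes were called with spermine against control (1 lower), and 622 between spermine and spermidine (264 higher, 358 lower), among them 0 members higher and 1 lower. The following 3 settings were chosen after seeing the data. Without controls 2 and 3, 0 members were lower with spermidine and 13 genes were called with spermine against control, all 13 higher. Without spermine 1 as well, 0 members were lower with spermidine, 1 was higher with spermine than in controls and 0 higher with spermine than with spermidine. Without controls 1, 4 and 5, 163 genes were called with spermine against control (60 higher, 103 lower). Leaving out 1 array at a time gave 0 to 1 member lower with spermidine, 0 to 4 genes called with spermine against control (0 to 4 higher, 0 to 1 lower), and, between spermine and spermidine, 300 to 489 genes higher, 0 to 2 members higher and 1 to 3 members lower. The causes of these shifts were not tested. With 3 spermine arrays, and 68.0% of simulated log2 changes of 1 recovered, a gene not called there is not shown to be unchanged. The simulation held 200 changed genes, where the spermine contrast called 1 gene in these data, so that share may be too high for it.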
